A study of Mus musculus with 158 samples.

Results

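Pool 9 of a short hairpin RNA (shRNA) screen was followed from infected cells to long-term culture and to lung tumours in mice. Its members were the 52 hairpins that the deposited tables assign to pool 9, out of 1000 targeting hairpins in 19 pools, and they were read in 12 of the 158 samples of the series. The 52 hairpins were directed against 24 genes, of which 7 had 1 hairpin, 8 had 2, 7 had 3 and 2 had 4. All cells were PDA530 Met, a mouse pancreatic adenocarcinoma line from a liver metastasis, infected with the hairpin virus at a multiplicity of infection of 0.3 and kept for 4 days in puromycin at 3 µg/ml. The labels name neither the genotype of the line nor the strain and age of the mice.

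The 12 samples formed 4 groups, all of which carried the hairpin virus and had been through puromycin. Day 0 cells gave libraries A, B and C, taken before injection. Lung tumours were taken 28 days after tail vein injection, with the tumours of a mouse combined into 1 DNA sample, and lungs A and C were analysed, so each stands for 1 mouse (the labels' protocol speaks of 3 mice per pool). Cells kept in culture for the same 28 days were read in mixtures with a neighbouring pool. Culture 8/9 held pools 8 and 9 (A, B and C, with a technical repeat of A that was summed with it), and culture 9/10 held pools 9 and 10 (A, B and C). The protocol mentions a pellet of cells at day 0 for each pool, and nothing in the labels says that A, B and C came from separate infections. The p-values below therefore measure the spread between these libraries, which may be technical.

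An shRNA is processed into a small RNA that lowers the messenger RNA of its target gene, and because the virus inserts into the genome, the hairpin also serves as a heritable tag of the cell that carries it. Cells whose growth is slowed by a hairpin become rarer in a mixed population, and cells whose growth is helped become more common. Cells that seed the lung from a vein must arrest, survive and grow out, so few founder cells can give rise to much of a lesion. Hairpins against 1 gene differ in how well they lower it and in their unintended targets, and each hairpin is therefore described by its own identifier. The hairpin sequences were not used here.

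Each library had between 5530029 and 9321062 reads, of which between 3379359 and 5556947 belonged to pool 9, so counting error was small beside the differences between libraries for all but the rarest hairpins. All levels below are the percentage of the pool 9 reads of a library. Day 0 libraries correlated with each other at Pearson r from 0.996 to 0.998 across the 52 hairpins, cultures 8/9 from 0.966 to 0.981 and cultures 9/10 from 0.948 to 0.962, while lungs A and C had r = 0.831 (hairpins are not independent replicates). Reads of other pools made up 0.971% of lungs A and 0.138% of lungs C, against 0.334% to 0.385% at day 0. The control hairpins of these libraries did not keep 1 common level in the lungs. Non-targeting-shRNA-1 went from a day 0 mean of 10.2 reads per 100 pool 9 reads to 14.5 and 15.2 in lungs A and C, Non-targeting-shRNA-2 from 2.60 to 0.537 and 0.974, and the GFP hairpin from 1.69 to 0.626 and 0.168. The hairpins listed against MUC1 and PIK3CA, symbols written in the human style, went from 5.49 to 1.76 and 0.905 and from 1.05 to 0.189 and 0.0534. Shares thus also moved for the non-targeting and GFP hairpins, and the part of this in the changes below was not tested.

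**Figure D1:**
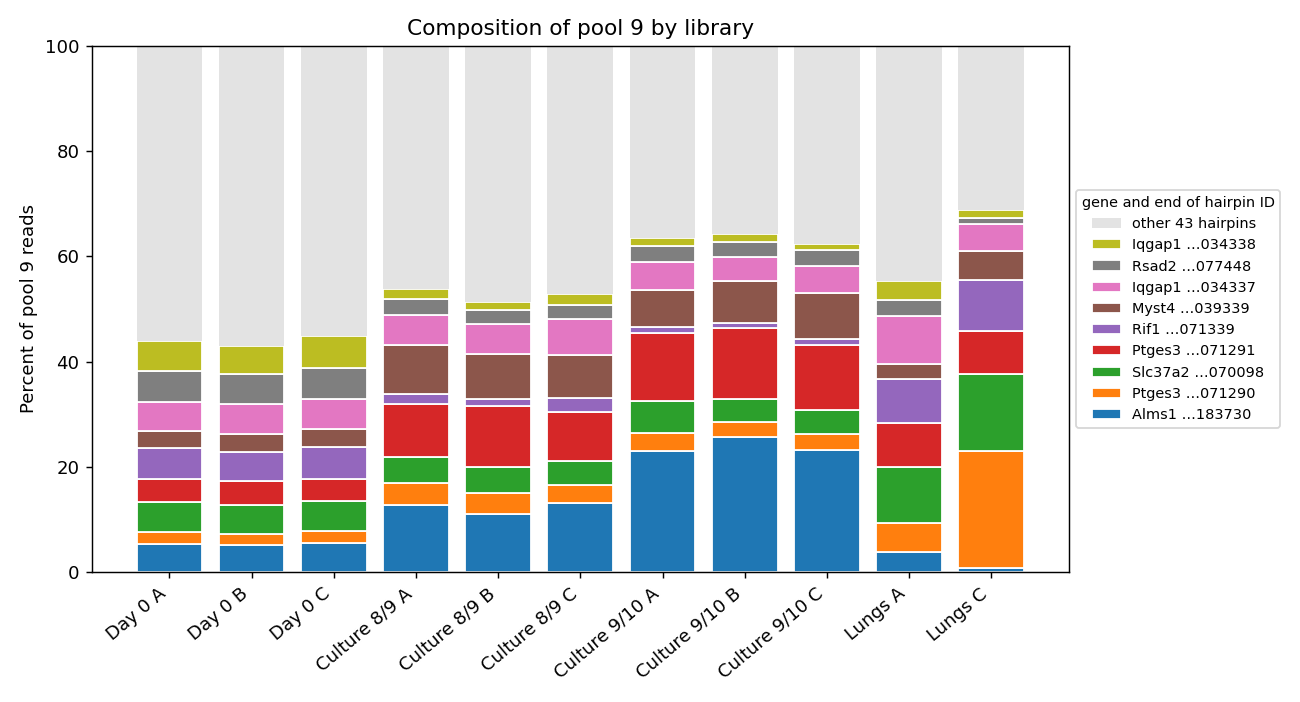
Composition of pool 9 in 11 libraries (x axis), as the percentage of pool 9 reads (y axis, 0 to 100), with the 9 hairpins that were among the 3 most abundant of any library in colour and the other 43 in grey. The Alms1 hairpin TRCN0000183730 (bottom segment) takes 5.06% to 5.54% at day 0, 11.0% to 13.2% in culture 8/9, 23.0% to 25.7% in culture 9/10 and 3.88% and 0.751% in the lungs.

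The population grew more uneven in all 3 settings, and culture and lungs were led by other hairpins than day 0. At day 0 the most abundant hairpin on average was TRCN0000077448 against Rsad2, an interferon-induced antiviral enzyme, at 5.90%, 5.79% and 6.04%, with TRCN0000071339 against Rif1 ahead of it in A and C. In culture the lead passed to TRCN0000183730 against Alms1, a protein of centrosomes and ciliary basal bodies, which was the top hairpin of 5 of the 6 culture replicates. In lungs A it was TRCN0000070098 against Slc37a2, a sugar-phosphate transporter of the endoplasmic reticulum, at 10.8%, and in lungs C TRCN0000071290 against Ptges3, the Hsp90 co-chaperone p23, at 22.2%. The effective number of hairpins (the exponential of the Shannon entropy, which equals 52 when all hairpins are equally common) was 35.7, 36.1 and 35.1 at day 0. It was 25.7, 26.5 and 26.1 in culture 8/9, 20.2, 18.8 and 20.4 in culture 9/10, and 27.3 and 16.7 in lungs A and C. Every culture and lung library lay below every day 0 library, and the differences of means from day 0 were -9.52 for culture 8/9, -15.8 for culture 9/10 and -13.7 for the lungs. With 3 libraries against 3 a two-sided exact permutation test cannot give a p below 0.1, and with 2 against 3 none below 0.2, and these were the values found (0.1, 0.1 and 0.2).

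Most pool 9 hairpins changed in culture, and more fell than rose. Against day 0, 40 of 52 hairpins passed an adjusted p of 0.05 in culture 8/9 (76.9%), 14 higher and 26 lower. Across all pools 65.4% of 945 hairpins passed in that comparison, 17.6% higher and 47.8% lower. In culture 9/10, 41 of 52 passed (78.8%), 12 higher and 29 lower, where all pools gave 65.5%, with 17.4% higher and 48.1% lower. In the lungs 18 of 52 passed (34.6%), 6 higher and 12 lower, where all pools gave 38.2% of 891 hairpins, 9.32% higher and 28.8% lower. The shares of pool 9 were near those of the whole series in the lungs and somewhat above them in culture, which was not tested. The median change on the log2(CPM + 1) scale, with CPM for reads per 1000000 pool 9 reads, was -0.58, -0.93 and -1.33, against -0.64, -0.65 and -0.73 over all pools. The median and the split of calls depended on the scaling. With TMM factors the median became -0.27, -0.21 and -0.35, and the splits became 19 higher and 23 lower, 18 and 22, and 13 and 5. With the size factors of DESeq2 they were 22 and 19, 19 and 17, and 11 and 6, and with the deposited values 20 and 21, 19 and 21, and 6 and 9. For the lungs, scaling by the total of the control hairpins gave 6 higher and 8 lower, with a median of -1.18. All 14 and all 12 rises in the cultures and all 6 in the lungs were called in the same direction under every scaling tried, while 19 of 26, 17 of 29 and 3 of 12 falls were. Every other scaling also raised the median change, to -0.04, -0.02 and -0.37 with DESeq2 size factors, which favours rises over falls. That rises held where falls were lost therefore does not make the rises firmer.

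The largest gain in percentage points in culture was that of TRCN0000183730 against Alms1. It took 5.29%, 5.06% and 5.54% of pool 9 reads at day 0, 12.7%, 11.0% and 13.2% in culture 8/9 and 23.0%, 25.7% and 23.2% in culture 9/10. The groups did not overlap, and culture 9/10 stood highest. The change from day 0 was 1.21 ± 0.087 (log2, SE, n = 3 against 3, limma adjusted p = 5.34e-11) in culture 8/9 and 2.18 ± 0.063 (adjusted p = 5.75e-09) in culture 9/10, or 1.79 and 3.11 above the median hairpin of the pool. The other 3 Alms1 hairpins went the other way. TRCN0000183191 was at 2.44% to 2.51% at day 0, 0.225% to 0.327% in culture 8/9 and 0.302% to 0.446% in culture 9/10, and its changes were -3.16 ± 0.19 and -2.78 ± 0.19. TRCN0000180565 was at 3.77% to 3.97% at day 0, 1.28% to 1.63% in culture 8/9 and 1.69% to 1.88% in culture 9/10, and its changes were -1.37 and -1.13. TRCN0000183842 was at 1.52% to 1.82% at day 0, 0.843% to 1.02% in culture 8/9 and 0.938% to 1.28% in culture 9/10. It was called at -0.80 and -0.64, but relative to the pool's median it was 0.29 higher in culture 9/10, and its direction there turned under all 3 other scalings.

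Of the 3 hairpins against Ptges3, 2 rose in both mixtures. TRCN0000071291 rose from 4.34%, 4.60% and 4.12% to 10.1%, 11.5% and 9.31% in culture 8/9 and to 13.1%, 13.6% and 12.5% in culture 9/10, changes of 1.24 ± 0.086 and 1.58 ± 0.064. TRCN0000071290 was at 2.26%, 2.23% and 2.23% at day 0, at 4.30%, 3.91% and 3.34% in culture 8/9 and at 3.45%, 2.83% and 3.04% in culture 9/10. It rose by 0.78 and 0.47, with no overlap with day 0. The third hairpin, TRCN0000071288, was at 3.46% to 3.72% at day 0, 4.53% to 4.81% in culture 8/9 and 1.74% to 2.70% in culture 9/10. It rose by 0.37 in culture 8/9 and was called at -0.78 in culture 9/10, where its direction turned under the DESeq2 size factors and the deposited values.

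Both Vgll4 hairpins rose in both mixtures, and 1 Dusp4 hairpin did. Vgll4 is a cofactor of the TEAD transcription factors that competes with YAP, the effector of the Hippo pathway, and was the pool's only gene on a list of Hippo, Wnt and TGF-beta family genes. Its TRCN0000175905 went from 0.912%, 0.983% and 0.781% to 3.11%, 3.36% and 3.36% in culture 8/9 and 2.25%, 2.56% and 2.78% in culture 9/10, rises of 1.88 ± 0.14 and 1.51 ± 0.14. The second Vgll4 hairpin, TRCN0000173136, rose by 0.61 and 0.55, from 2.48% to 2.81% at day 0 to 3.95% to 4.24% and 3.33% to 4.43%. Vgll4 was the only gene with more than 1 hairpin in pool 9 whose hairpins all rose in both mixtures. Dusp4, a phosphatase that turns off ERK and other MAP kinases, was the only gene of a MAPK list in the pool. Its TRCN0000054351 was at 0.995%, 1.05% and 0.825% at day 0, 3.12%, 4.10% and 3.32% in culture 8/9 and 1.52%, 1.96% and 1.74% in culture 9/10, rises of 1.87 ± 0.15 and 0.86 ± 0.16. The other Dusp4 hairpins differed from it and between mixtures. TRCN0000054349, at 0.447% to 0.556% at day 0, 0.853% to 0.986% in culture 8/9 and 0.514% to 0.599% in culture 9/10, rose by 0.86 in culture 8/9 and stood at 0.16 in culture 9/10 (adjusted p = 0.418). TRCN0000054348, at 0.356% to 0.451%, 0.229% to 0.332% and 0.438% to 0.550%, was called at -0.64 in culture 8/9 (adjusted p = 0.048) and stood at 0.20 in culture 9/10 (adjusted p = 0.327). That call was lost under each other scaling, without any 1 of the day 0 libraries and without culture 8/9 A (adjusted p from 0.0583 to 0.185).

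A histone acetyltransferase and a transporter completed the 6 largest gains in each mixture. Myst4 is the older name of Kat6b, which acetylates histone H3 and was the pool's only gene on a chromatin list. Its TRCN0000039339 rose from 3.17%, 3.40% and 3.41% to 9.25%, 8.46% and 8.30% in culture 8/9 and 6.97%, 7.80% and 8.77% in culture 9/10, changes of 1.38 ± 0.076 and 1.23 ± 0.090. The rarer Myst4 hairpin TRCN0000039341 (0.168% to 0.205% at day 0) did not pass in either mixture. TRCN0000070100 against Slc37a2 went from 0.710%, 0.703% and 0.763% to 3.60%, 2.17% and 1.40% in culture 8/9 and 1.69%, 2.21% and 3.58% in culture 9/10. Its replicates spread widely but all lay above day 0, with changes of 1.61 ± 0.32 (adjusted p = 0.00362) and 1.71 ± 0.25 (adjusted p = 0.000346).

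The deepest losses in culture were of Eif5b, the initiation factor that joins the 2 ribosomal subunits at the start codon. TRCN0000181192 fell from 46660, 40251 and 33189 reads at day 0 (0.818% to 0.840%) to 0.0183%, 0.0241% and 0.0445% in culture 8/9 and 0.00440%, 0.0139% and 0.0301% in culture 9/10, changes of -4.93 ± 0.36 and -6.06 ± 0.69. TRCN0000179179 fell from 0.150%, 0.150% and 0.154% to 0.0228%, 0.0595% and 0.0273% in culture 8/9, and in culture 9/10 it was left with 12, 100 and 8 reads. Its changes were -2.18 ± 0.42 and -7.73 ± 0.86. The third hairpin, TRCN0000183617, was at 0.403% to 0.413% at day 0, 0.235%, 0.351% and 0.0800% in culture 8/9 and 0.0205%, 0.0620% and 0.100% in culture 9/10. Its change was -3.01 ± 0.56 in culture 9/10, and its change of -1.12 in culture 8/9 had an adjusted p of 0.0606. All 3 Eif5b hairpins were therefore called in culture 9/10.

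Hairpins against Eftud2, Snrpd1 and Vcp also fell in both mixtures, and a second Eftud2 hairpin did not in culture 8/9. TRCN0000123642 against Eftud2, the GTPase of the U5 small nuclear ribonucleoprotein, fell from 0.488%, 0.511% and 0.541% to 0.0681%, 0.0996% and 0.0544% in culture 8/9 and 0.0384%, 0.0309% and 0.0312% in culture 9/10, changes of -2.84 ± 0.33 and -3.94 ± 0.34. The second Eftud2 hairpin, TRCN0000123640, stood at 0.02 in culture 8/9 (adjusted p = 0.903) and was called at -1.18 in culture 9/10, a call that was lost under each other scaling and without culture 9/10 B (adjusted p = 0.0610). Snrpd1, a core Sm protein of the spliceosome, had TRCN0000123403 at 1.19%, 1.18% and 1.22% at day 0, at 0.143%, 0.127% and 0.302% in culture 8/9 and at 0.243%, 0.115% and 0.216% in culture 9/10, changes of -2.76 ± 0.29 and -2.71 ± 0.27. Vcp, the AAA ATPase p97 that extracts ubiquitinated proteins, had TRCN0000008413 at 1.30%, 1.25% and 1.37% at day 0, at 0.141%, 0.170% and 0.195% in culture 8/9 and at 0.257%, 0.175% and 0.351% in culture 9/10, changes of -2.97 ± 0.23 and -2.38 ± 0.25. In the lungs neither passed, with 2.82% and 0.0626% for Snrpd1 and 0.806% and 0.0735% for Vcp in lungs A and C (adjusted p = 0.533 and 0.158). On a list of genes of translation, RNA processing and ribosome biogenesis, which was drawn up with results of this screen known, the pool had Eif5b, Eftud2 and Ptges3 with 8 hairpins. Of these, 3 rose and 3 fell in culture 8/9 (median -0.55), 2 rose and 6 fell in culture 9/10 (median -2.10), and 1 rose and 3 fell in the lungs (median -5.33). Over all pools 17.6% of hairpins were called higher and 47.8% lower in culture 8/9, 17.4% and 48.1% in culture 9/10, and 9.32% and 28.8% in the lungs. The 6 falls in culture 9/10 include TRCN0000071288 against Ptges3, whose direction turned under 2 of 3 other scalings, and TRCN0000123640 against Eftud2, whose call was lost in all 3. The rises were all of Ptges3, whose co-chaperone role lies outside the name of the list. Snrpd1 was not on the list, so its hairpin is in none of these counts.

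Other members of the 6 largest losses belonged to genes with hairpins that differed among themselves. TRCN0000067117 against Cxcl3, a chemokine that attracts neutrophils, fell from 1.83%, 1.96% and 1.88% to 0.190%, 0.196% and 0.434% in culture 8/9 and 0.168%, 0.183% and 0.155% in culture 9/10, changes of -2.90 ± 0.29 and -3.49 ± 0.15. TRCN0000067115 against the same gene rose, from 0.436%, 0.447% and 0.361% to 0.629%, 0.926% and 0.924% and to 0.510%, 0.630% and 0.642%, by 0.98 and 0.52, where the call in culture 9/10 was lost without day 0 A or C or culture 9/10 B (adjusted p from 0.0586 to 0.0891). The other Cxcl3 hairpins, TRCN0000067114 and TRCN0000067116, stood at -0.88 and -0.19 in culture 8/9, of which the first was called. In culture 9/10 both were called, the first at -1.34, while the second fell by 1.00. Among 3 other scalings, the call of TRCN0000067114 held in 1 in culture 8/9 and in 2 in culture 9/10, and that of TRCN0000067116 in culture 9/10 held in 1. TRCN0000067114 was at 0.724% to 0.957% at day 0, 0.445% to 0.470% in culture 8/9 and 0.328% to 0.341% in culture 9/10. TRCN0000067116 was at 2.51% to 2.56%, 1.92% to 2.52% and 1.15% to 1.39%.

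Rif1 and Mast4 differed between hairpins in other ways. TRCN0000071340 against Rif1, a factor of replication timing and double-strand break repair, fell from 1.32%, 1.25% and 1.37% to 0.0721%, 0.0798% and 0.133% in culture 8/9, a change of -3.84 ± 0.29. In culture 9/10 its replicates were at 0.308%, 0.124% and 1.62%, with C above day 0 (change -1.73 ± 0.90, adjusted p = 0.141). Mast4, a kinase of the microtubule-associated serine/threonine family, had TRCN0000022931 at 0.161%, 0.188% and 0.165% at day 0, at 0.0588%, 0.0293% and 0.0405% in culture 8/9 and at 0.0636%, 0.0106% and 0.0190% in culture 9/10, changes of -2.05 ± 0.39 and -2.86 ± 0.72. Its second hairpin, TRCN0000022932, at 1.68% to 1.81% at day 0, 1.72% to 2.29% in culture 8/9 and 1.18% to 1.26% in culture 9/10, was called at -0.51 in culture 9/10, but its direction turned under all 3 other scalings.

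**Figure D2:**
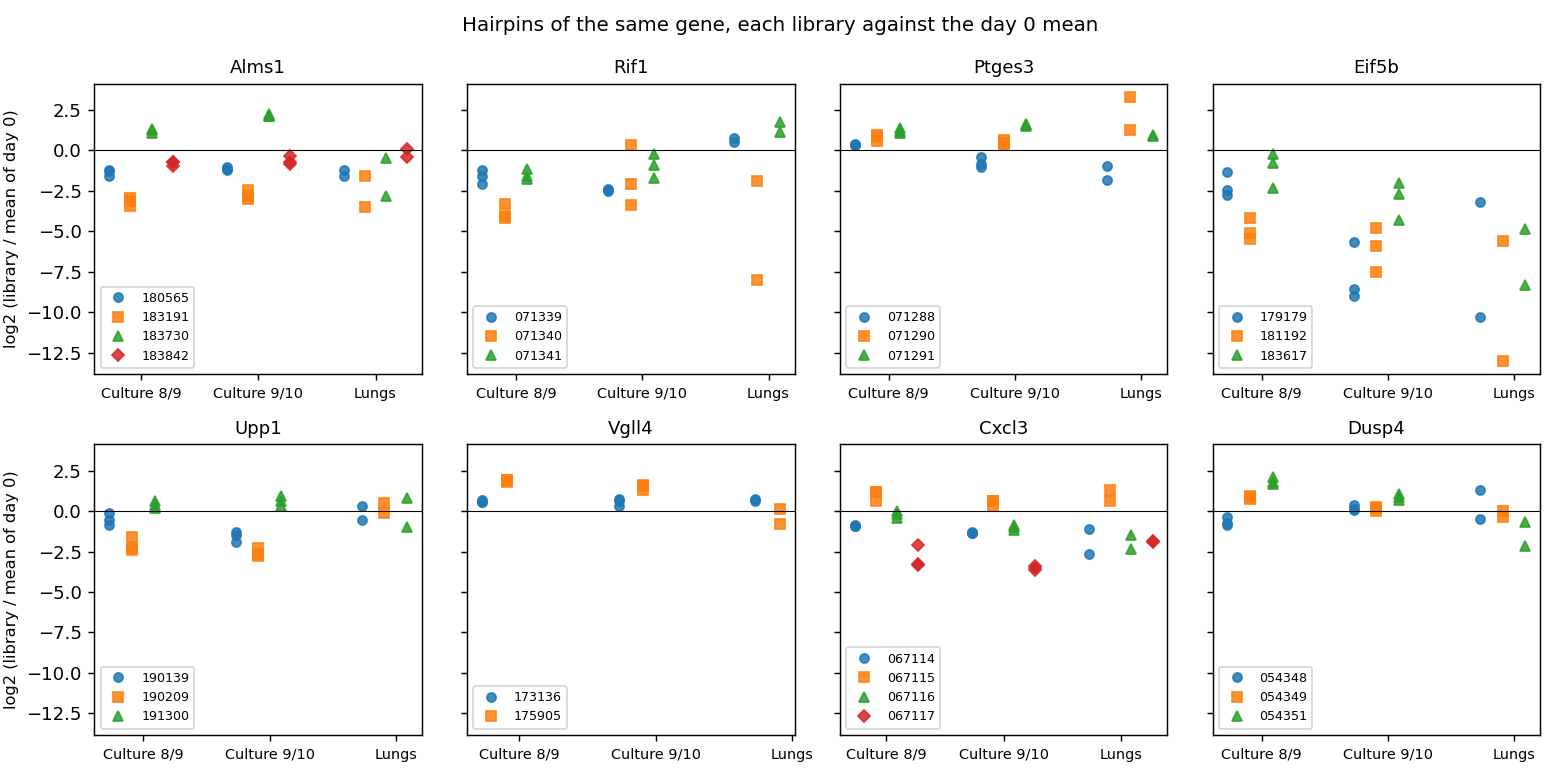
Log2 ratio of each culture and lung library to the mean of day 0 (y axis, CPM + 1) for all hairpins of 8 genes, by setting (x axis), with 1 symbol per library and 1 colour and shape per hairpin (last digits of its identifier). Alms1, Cxcl3 and Upp1 have hairpins on both sides of 0 in culture, whereas all Eif5b libraries lie below 0 and all Vgll4 culture libraries lie above 0.

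Of the 17 genes with more than 1 hairpin, 4 had all hairpins called in 1 direction in culture 8/9 (Rif1 and BC003331 lower, Ptges3 and Vgll4 higher) and 6 had hairpins called in opposite directions (Alms1, Cxcl3, Dusp4, Slc37a2, Upp1 and Yme1l1). Over all pools, 20.3% of 320 genes with more than 1 hairpin in a pool had all of them called in 1 direction in that comparison and 25.3% had opposite calls. In culture 9/10, 5 genes had all hairpins called in 1 direction (BC003331, Eftud2, Eif5b and Mast4 lower, Vgll4 higher) and 4 had opposite calls (Alms1, Cxcl3, Ptges3 and Upp1), where the shares over all pools were 20.6% and 24.7%. Nothing particular to pool 9 is read from these counts. Of the 5, Eif5b and Vgll4 kept all calls under every scaling, whereas TRCN0000215638 against BC003331 and TRCN0000123640 against Eftud2 lost theirs under each other scaling, and TRCN0000022932 against Mast4 turned. The other scalings raised the median change, which favours rises such as those of Vgll4. Of the opposite calls, those of Ptges3 in culture 9/10 and of Slc37a2 and Dusp4 in culture 8/9 rested on hairpins whose lower call turned or was lost under other scalings. Upp1, uridine phosphorylase, which splits uridine into uracil and ribose-1-phosphate and was the only gene of a metabolism list in the pool, showed the contrast in both. Its TRCN0000190209 fell from 2.72%, 2.66% and 2.47% to 0.541%, 0.502% and 0.853% in culture 8/9 and 0.549%, 0.421% and 0.382% in culture 9/10, changes of -2.09 ± 0.19 and -2.55 ± 0.18. TRCN0000191300 rose by 0.39 and 0.63, from 1.01%, 1.03% and 1.03% to 1.18%, 1.56% and 1.31% and to 1.94%, 1.27% and 1.61%, a call that was lost in culture 8/9 without any 1 of the day 0 libraries or culture 8/9 B (adjusted p from 0.0695 to 0.167). The third Upp1 hairpin, TRCN0000190139, was at 0.394% to 0.454%, 0.238% to 0.384% and 0.114% to 0.176%, with changes of -0.51 (adjusted p = 0.115) and -1.54. In the lungs 1 gene, Ptges3, had opposite calls, and none had all of 2 or more hairpins called in 1 direction, where the shares of 303 genes over all pools were 12.5% and 4.29%.

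Yme1l1, a protease of the inner mitochondrial membrane, also split in culture 8/9. TRCN0000031200 rose by 0.62, from 2.47%, 2.51% and 2.60% to 3.80%, 3.81% and 4.06%, and stood at -0.10 in culture 9/10 (adjusted p = 0.443). TRCN0000031203, at 0.833% to 0.894% at day 0, 0.322% to 0.485% in culture 8/9 and 0.178% to 0.274% in culture 9/10, changed by -1.12 and -1.91. TRCN0000031201, at 1.07% to 1.10%, 0.386% to 0.884% and 0.282% to 0.435%, changed by -1.06 and -1.68, and its call in culture 8/9 was lost under each other scaling.

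In the lungs the 6 hairpins called higher than day 0 were against Sesn2, Rif1 (2 hairpins), Slc37a2, Ptges3 and Vgll4. TRCN0000087792 against Sesn2, a stress-induced leucine sensor that restrains mTORC1, had 0.383%, 0.407% and 0.354% at day 0 and 1.31% and 1.28% in lungs A and C. Both mice lay above day 0 and close to each other, with a change of 1.76 ± 0.19 (n = 2 against 3, adjusted p = 0.00380). TRCN0000071341 against Rif1 went from 1.07%, 1.14% and 1.00% to 2.36% and 3.67%, a change of 1.46 ± 0.25 (adjusted p = 0.0145). TRCN0000071339 against Rif1 went from 5.93%, 5.56% and 6.10% to 8.31% and 9.80%, a change of 0.62 ± 0.12 (adjusted p = 0.0171, and 0.0626 and 0.0633 without day 0 A or B). The 2 mice lay above all day 0 libraries for both Rif1 hairpins. TRCN0000070098 against Slc37a2 went from 5.76%, 5.47% and 5.78% to 10.8% and 14.7% (1.15 ± 0.16, adjusted p = 0.00775).

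Ptges3 and Vgll4 gave the remaining lung gains. TRCN0000071291 against Ptges3 was at 8.26% and 8.11%, above its day 0 level of 4.12% to 4.60%, a change of 0.91 ± 0.11 (adjusted p = 0.00447). TRCN0000173136 against Vgll4 was at 4.15% and 4.46%, above 2.48% to 2.81% at day 0 (0.69 ± 0.15, adjusted p = 0.0246). The largest positive change of the pool, that of TRCN0000071290 against Ptges3, did not pass. Its shares of 5.38% and 22.2% both lay above the 2.23% to 2.26% of day 0, but differed so much from each other that its change of 2.29 ± 0.64 had an adjusted p of 0.0522.

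The 12 hairpins called lower in the lungs were led by Eif5b. TRCN0000181192 had 737 reads (0.0166%) in lungs A and 0 reads in lungs C, where a count of 0 allows a share of up to 6.70e-05%, and changed by -9.32 ± 2.4 (adjusted p = 0.0444). TRCN0000183617 had 0.0137% and 0.00116% and changed by -6.61 ± 1.4 (adjusted p = 0.0232). The third Eif5b hairpin, TRCN0000179179, had 720 reads and 1 read, with an adjusted p of 0.089. Lungs A also held 36500 reads of pool 8 hairpins and lungs C 206. The part of such stray reads in these low counts was not tested. Slco1c1, a transporter of thyroid hormone and organic anions, had TRCN0000079909 at 2.95%, 3.09% and 2.85% at day 0 and at 0.670% and 0.263% in the lungs (-2.82 ± 0.45, adjusted p = 0.0118), and it was called in both cultures as well, at -0.99 and -1.74.

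Cxcl3 and Alms1 gave further lung losses. TRCN0000067116 against Cxcl3 went from 2.51%, 2.56% and 2.55% to 0.910% and 0.502% (-1.91 ± 0.30), and TRCN0000067117 from 1.83% to 1.96% to 0.511% and 0.527% (-1.87 ± 0.20, adjusted p = 0.00334). TRCN0000183191 against Alms1 went from 2.44% to 2.51% to 0.832% and 0.220% (-2.53 ± 0.62, adjusted p = 0.0375), and TRCN0000180565 from 3.77% to 3.97% to 1.28% and 1.64% (-1.42 ± 0.16). Both mice lay below day 0 for each of these hairpins. The other calls were 1 hairpin each of BC003331, Ptges3, Rsad2, Tmem45b and Yme1l1, with changes from -1.85 to -1.08. TRCN0000071288 against Ptges3 was among them, at 1.84% and 1.03% against 3.46% to 3.72% at day 0 (-1.39 ± 0.29).

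The lung calls rested on 2 mice and on the small spread at day 0. Without day 0 A, B or C in turn, 9, 9 and 10 hairpins were called, and 8 of the 18 lost their call without each of them (adjusted p from 0.0557 to 0.126). These were both called Eif5b hairpins, TRCN0000183191 against Alms1, TRCN0000071288 against Ptges3, TRCN0000173136 against Vgll4 and the hairpins of Rsad2, Tmem45b and Yme1l1. Among 4 other scalings, the call of TRCN0000181192 against Eif5b held in 1, that of Rsad2 in 0, and those of TRCN0000067117 against Cxcl3, both Alms1 hairpins, Ptges3 TRCN0000071288, BC003331, Tmem45b and Yme1l1 in 2. The calls of TRCN0000183617 against Eif5b, TRCN0000079909 against Slco1c1 and TRCN0000067116 against Cxcl3 held in all 4. With lungs C alone 46 were called and with lungs A alone 44, where the lone mouse is assumed to vary like the day 0 libraries.

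**Figure D3:**
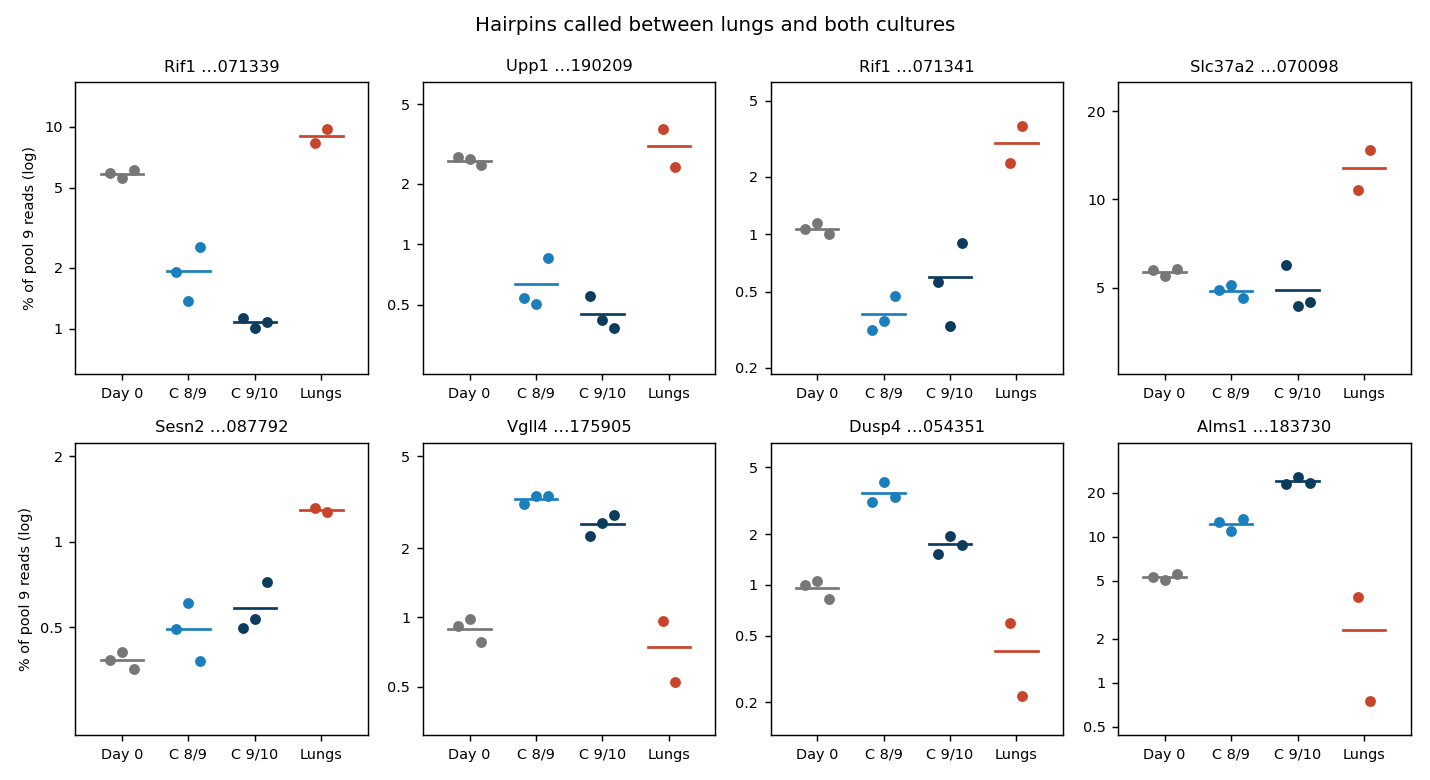
Share of pool 9 reads (y axis, log scale) of the 8 hairpins called between the lungs and each culture mixture, by group (x axis, C for culture), with 1 point per library and a bar at the mean. The 5 hairpins higher in the lungs come first; TRCN0000071339 against Rif1 is at 8.31% and 9.80% in the lungs and at 1.01% to 2.53% in culture.

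The lungs were also set directly against culture. The hairpins called against both mixtures were of Rif1, Upp1, Slc37a2 and Sesn2 (higher in the lungs) and of Alms1, Dusp4 and Vgll4 (lower). Against culture 9/10, 8 of 52 hairpins were called (15.4%), 5 higher and 3 lower, where 26.2% of 889 were called over all pools (12.0% higher and 14.2% lower, each against its own culture). Against culture 8/9, 15 were called (28.8%), 5 higher and 10 lower, where 27.0% were called over all pools. These 2 comparisons share the lung libraries. The 8 hairpins called against culture 9/10 were all also called against culture 8/9. Under every other scaling 2 of the 5 higher calls and the 3 lower calls against culture 9/10 held. The largest called difference from culture 8/9 was that of TRCN0000123640 against Eftud2, at 0.260% and 0.0211% in the lungs and 1.19% to 1.37% in culture 8/9 (-4.08 ± 0.94, adjusted p = 0.0115). It was not called against culture 9/10 (-2.87, adjusted p = 0.149). Without 1 mouse the counts were 31 and 21 against culture 9/10, and 33 and 32 against culture 8/9, and without culture 9/10 A and C in turn they were 4 and 5.

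Rif1 hairpins were high in the lungs and low in culture. TRCN0000071339, at 8.31% and 9.80% in the lungs, was at 1.92%, 1.36% and 2.53% in culture 8/9 and 1.12%, 1.01% and 1.08% in culture 9/10, so no culture library came near a lung library. The difference was 3.07 ± 0.22 (n = 2 against 3, adjusted p = 0.000208) from culture 9/10 and 2.27 ± 0.43 (adjusted p = 0.00381; 0.115 and 0.0713 without lungs A or C) from culture 8/9. TRCN0000071341, at 2.36% and 3.67% in the lungs, was at 0.315%, 0.350% and 0.477% in culture 8/9 and 0.562%, 0.333% and 0.901% in culture 9/10, differences of 2.97 ± 0.33 and 2.41 ± 0.49 (adjusted p = 0.0152 against culture 9/10, and 0.0685 without culture 9/10 A). The third hairpin did not share this. TRCN0000071340 was at 0.353% and 0.00500% in the lungs and was called in neither contrast (adjusted p = 0.313 and 0.721).

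Upp1, Slc37a2 and Sesn2 each had 1 hairpin called higher in the lungs than in both cultures. TRCN0000190209 against Upp1 was at 3.78% and 2.42% in the lungs, near its day 0 level of 2.47% to 2.72% (change from day 0 of 0.21, adjusted p = 0.533), and at 0.382% to 0.853% in the cultures, differences of 2.76 ± 0.33 from culture 9/10 and 2.30 ± 0.39 from culture 8/9. TRCN0000070098 against Slc37a2, at 10.8% and 14.7%, was at 4.93%, 5.10% and 4.63% in culture 8/9 and 5.97%, 4.32% and 4.48% in culture 9/10. Its difference was 1.37 from each, and the call against culture 9/10 was lost under each other scaling and without culture 9/10 B or C. Against day 0 it was called at -0.21 in culture 8/9, with its direction turned under all 3 other scalings. TRCN0000087792 against Sesn2 was at 0.380% to 0.606% in culture 8/9 and 0.496% to 0.722% in culture 9/10, below the 1.28% and 1.31% of the lungs, differences of 1.42 ± 0.32 and 1.17 ± 0.28, and the latter call held under 1 of 3 other scalings and was lost without culture 9/10 A or B (adjusted p = 0.0928 and 0.104).

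The 3 hairpins lower in the lungs than in both cultures had all gained in culture. TRCN0000183730 against Alms1 was at 3.88% and 0.751% in the lungs, a difference of -3.81 ± 0.67 from culture 9/10 (adjusted p = 0.00955) and -2.84 ± 0.60 from culture 8/9, while its change from day 0 of -1.63 had an adjusted p of 0.164. TRCN0000054351 against Dusp4 was at 0.596% and 0.218%, a difference of -2.26 ± 0.46 from culture 9/10 (adjusted p = 0.0159; 0.0633 and 0.0681 without culture 9/10 A or C) and -3.27 ± 0.47 from culture 8/9. TRCN0000175905 against Vgll4 was at 0.963% and 0.524%, a difference of -1.83 ± 0.37 from culture 9/10 (adjusted p = 0.0150; 0.0502 and 0.0580 without culture 9/10 A or C) and -2.21 ± 0.43 from culture 8/9. Its day 0 level was 0.781% to 0.983%. The second Vgll4 hairpin, at 4.15% and 4.46% in the lungs, was called in neither contrast.

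**Figure D4:**
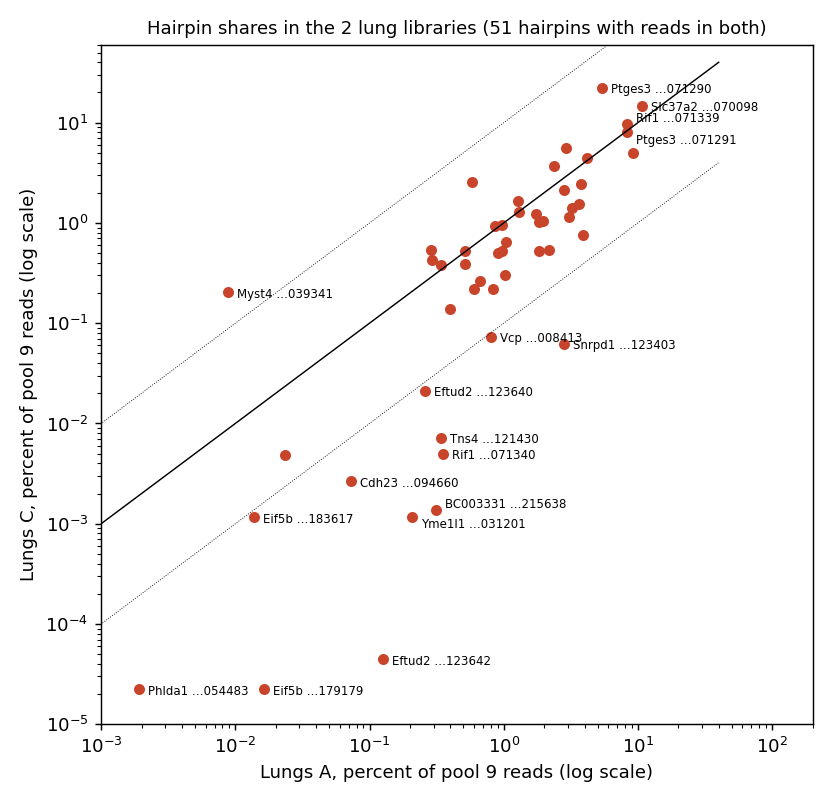
Share of pool 9 reads in lungs A (x axis) and lungs C (y axis), both on log scales, for the 51 hairpins with reads in both, with 1 point per hairpin, a solid line for equal shares and dotted lines for a 10-fold difference. Points under the lower dotted line are hairpins with a share over 10-fold lower in lungs C, and Myst4 TRCN0000039341 is the one above the upper line.

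The 2 mice were compared hairpin by hairpin. Of 52 hairpins, 36 lay on the same side of their day 0 mean in both mice, 9 above and 27 below. Both mice were set against the same day 0 means and most hairpins fell in each, so many would share a side even in unrelated mice. A difference of over 10-fold between the mice was seen for 14 hairpins, 13 of which were lower in lungs C. Neither count was set beside an expected number or the other pools. TRCN0000123403 against Snrpd1 was at 2.82% in lungs A, above its day 0 level of 1.18% to 1.22%, and at 0.0626% in lungs C. TRCN0000121430 against Tns4, a focal adhesion protein of the tensin family, was at 0.340% and 0.00717%, and TRCN0000123642 against Eftud2 had 5572 reads and 2 reads. The exception was TRCN0000039341 against Myst4, at 0.00882% in lungs A and 0.203% in lungs C, its day 0 level. Each mouse is 1 library, so these differences have no test. Reads of other pools made up 0.971% of lungs A and 0.138% of lungs C, and their part in the differences of rare hairpins was not tested. In pooled tumours, fewer cells that seeded and less growth per cell cannot be told apart.

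**Figure D5:**
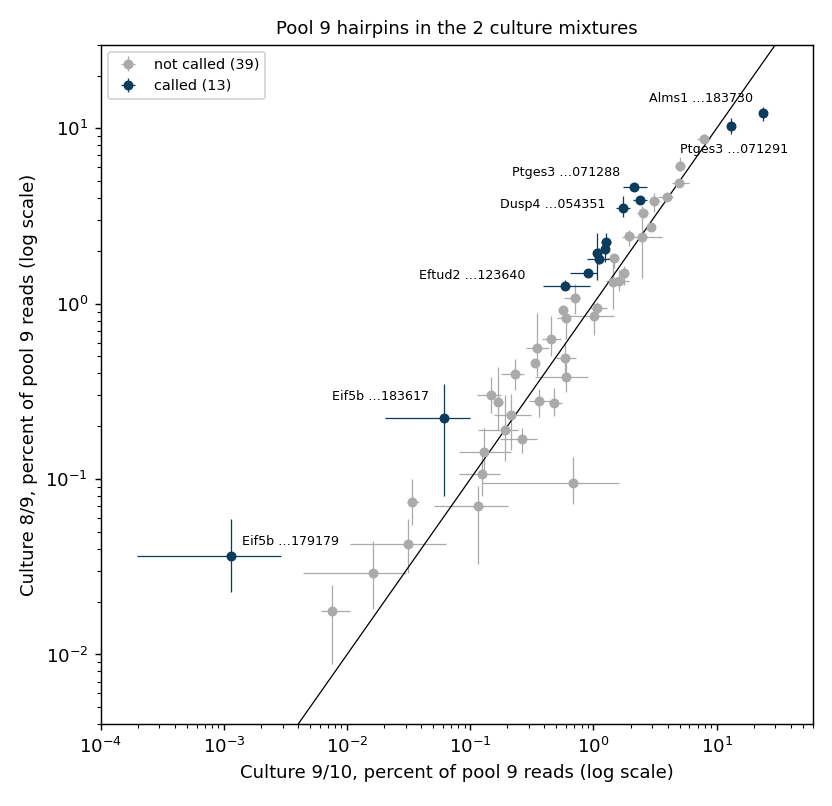
Mean share of pool 9 reads in culture 9/10 (x axis) and culture 8/9 (y axis), both on log scales, with lines from the lowest to the highest of 3 replicates, the 13 hairpins called between the mixtures in dark blue and 7 of them named. Eif5b TRCN0000179179 lies farthest from the line of equal shares, at 0.0228% to 0.0595% in culture 8/9 and 8 to 100 reads in culture 9/10.

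The 2 culture mixtures differed in 13 of 52 hairpins (25.0%), 11 higher in culture 8/9 and 2 higher in culture 9/10. The labels do not say whether they hold the same pool 9 cultures, or whether cells or DNA were mixed, so the differences may be between cultures or technical. With all groups of the pool in a shared limma fit 0 of the 52 were called (14 at an unadjusted p under 0.05; edgeR called 12 and DESeq2 19). Together with pool 10, the other pool with 2 mixtures, 15.5% of 103 hairpins were called, and pool 10 accounted for 3 of them. The 11 against 2 split depended on the scaling. It became 6 and 4 with TMM factors, 5 and 5 with DESeq2 size factors and 4 and 7 with the deposited values. Of the 13, 6 were called in the same direction under every scaling. Those 6 included TRCN0000183730 against Alms1 (-0.97 ± 0.10 in culture 8/9 relative to culture 9/10, adjusted p = 1.48e-08), TRCN0000071288 against Ptges3 (1.14 ± 0.15, adjusted p = 9.45e-07) and TRCN0000054351 against Dusp4 (1.01 ± 0.15, adjusted p = 6.10e-06). They also included TRCN0000123640 against Eftud2, at 1.19%, 1.37% and 1.22% in culture 8/9 and 0.386%, 0.441% and 0.942% in culture 9/10 (1.21 ± 0.29), and TRCN0000179179 against Eif5b (5.55 ± 1.1, adjusted p = 0.000314). The last, TRCN0000071291 against Ptges3 (-0.34 ± 0.11), had an adjusted p of 0.0246 and of 0.0573 with the replicate letter as a block, and of 0.0546 to 0.105 without 1 of 4 culture libraries. With that block TRCN0000071340 against Rif1 (-2.11) passed at 0.000522 and TRCN0000175905 against Vgll4 (0.38) at 0.0346. Without culture 8/9 A, 7 hairpins were called, and that of Eftud2 was not (adjusted p = 0.0955). By the lane names that the deposited data carry, which the sample labels do not give, the mixtures were sequenced in different lanes, so mixture and lane cannot be told apart.

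Some of the same genes were also targeted in other pools, with other libraries. Of the 24 genes, 16 had 32 further hairpins tested elsewhere. They are given here by gene, beside 47.8% of hairpins called lower in culture and 28.8% in the lungs over all pools. TRCN0000295003 and TRCN0000295005 against Snrpd1 in pool 15 changed by -2.47 and -2.38 in culture (adjusted p = 0.00383 and 0.00255), and by -9.49 and -1.21 in the lungs, of which the second did not pass (adjusted p = 0.000464 and 0.167). TRCN0000294567 against Eftud2 in pool 15 changed by -7.63 in the lungs (adjusted p = 0.000539; -0.80 in culture, adjusted p = 0.481), and TRCN0000339130 against Vcp in pool 18 by -2.52 in culture and -5.04 in the lungs (adjusted p = 0.00602 and 0.00128). The second Vcp hairpin of pool 18, TRCN0000339131, stood at 0.03 in culture and -2.72 in the lungs and passed in neither (adjusted p = 0.985 and 0.199). Of 3 Slco1c1 hairpins in pool 10, TRCN0000079910 and TRCN0000079912 had called changes of -1.11 and -2.10 in culture, whereas TRCN0000079911 rose by 0.71 (adjusted p = 0.00976). Of 2 Iqgap1 hairpins in pool 18, TRCN0000428346 had a called change of -2.30 in culture and TRCN0000419323 stood at -0.07 (adjusted p = 0.878). Both Mast4 hairpins of pool 18, TRCN0000360914 and TRCN0000360967, stood near 0 in culture, at 0.02 and 0.0029 (adjusted p = 0.893 and 0.985). Of 2 BC003331 hairpins in pool 16, TRCN0000420014 had called changes of -1.88 in culture and -1.45 in the lungs, and TRCN0000434776 passed in neither (-0.59 and -0.73). Of 3 Cdh23 hairpins in pool 8, TRCN0000094663 rose by 0.88 in culture, TRCN0000094662 had a called change of -1.30 and TRCN0000094661 stood at -0.60 (adjusted p = 0.190). Neither of the 2 Phlda1 hairpins of pools 7 and 15 passed in culture or the lungs. None of the Slco1c1, Iqgap1, Mast4 and Cdh23 hairpins of other pools passed in the lungs against day 0.

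The other Dusp4 hairpin, TRCN0000054350 in pool 11, had changes of -2.55 in culture and -1.93 in the lungs, both called. Of 3 further Tns4 hairpins in pool 8, TRCN0000121427 and TRCN0000121428 had changes of -1.93 and -2.15 in culture and TRCN0000121429 rose by 0.36, all called. In the lungs against day 0 the first was called at -2.27 (adjusted p = 0.00231), and the others stood at 0.31 and -0.24 (adjusted p = 0.430 and 0.347). TRCN0000250410 against Vgll4 in pool 17 rose by 2.03 in culture, from 0.778% ± 0.098 to 3.29% ± 1.2 (SD, n = 3 each), and TRCN0000250411 fell by 1.00 there (adjusted p = 0.00127). Neither was called in the lungs, at 0.83 and -0.10 (adjusted p = 0.452 and 0.868). The other Slc37a2 hairpin, TRCN0000305046 in pool 18, had called changes of -0.79 in culture and -1.81 in the lungs (adjusted p = 0.00541 and 0.00429), where TRCN0000070098 had risen. None of the 3 other Sesn2 hairpins passed in the lungs against day 0, with changes of 0.24, 0.26 and -0.57. In culture TRCN0000087791 in pool 8 rose by 2.16, TRCN0000340902 in pool 18 had a called change of -1.34 (adjusted p = 6.61e-05), and TRCN0000340899 in pool 18 stood at -0.06 (adjusted p = 0.935). The difference of lungs from culture was called for the first of these, at -1.92. It was also called higher for TRCN0000428346 against Iqgap1 (2.01), TRCN0000287544 against Myst4 (1.79), TRCN0000121428 against Tns4 (2.46) and TRCN0000379226 against Tmem45b (2.35). It was called lower for TRCN0000295003 against Snrpd1 (-7.02), TRCN0000294567 against Eftud2 (-6.83), TRCN0000094663 against Cdh23 (-1.05) and TRCN0000121429 against Tns4 (-0.60). The Myst4 hairpin of pool 17, TRCN0000287544, had a change of -2.24 in culture and of -0.45 in the lungs (adjusted p = 0.528). Tmem45b, a transmembrane protein, had 2 hairpins in pool 18 that rose in the lungs by 1.49 and 2.23 (TRCN0000376967 and TRCN0000379226) and were not called in culture (0.23 and -0.13, adjusted p = 0.629 and 0.673), whereas in pool 9 TRCN0000124224 was called at -1.08 in the lungs and TRCN0000124225 stood at -0.90 (adjusted p = 0.338).

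Iqgap1, a scaffold of the cytoskeleton and of MAPK signalling, had TRCN0000034337 at 5.55% to 5.65% at day 0, 5.73% to 6.83% in culture 8/9, 4.62% to 5.33% in culture 9/10 and 9.20% and 4.95% in the lungs, called in no comparison. Its TRCN0000034338 fell from 5.37% to 5.94% to 1.60% to 1.93% and 1.30% to 1.56% in the cultures, changes of -1.65 and -1.96, and was at 3.67% and 1.55% in the lungs. Of Rsad2, TRCN0000077448 was called at -1.10, -1.01 and -1.66 in the 2 cultures and the lungs, the last lost under each other scaling. TRCN0000077451 was called at -1.06 and -0.90 in the cultures, of which the second was lost under each other scaling and turned under the DESeq2 size factors, and TRCN0000077449 was not called. BC003331, a gene for which no current symbol was matched, had TRCN0000216875 at 3.16% to 3.28% at day 0, 1.68% to 2.07% in culture 8/9, 0.888% to 1.38% in culture 9/10 and 0.856% and 0.937% in the lungs, changes of -0.84, -1.57 and -1.85. Its TRCN0000215638, at 0.278% to 0.285% at day 0, 0.0330% to 0.0910% in culture 8/9 and 0.0511% to 0.201% in culture 9/10, changed by -2.14 and -1.52 (the latter lost without day 0 B or C, adjusted p = 0.0563 and 0.0704), and was at 0.315% and 0.00136% in the lungs. TRCN0000071341 against Rif1 was called in both cultures, at -1.51 and -0.95, the latter lost under each other scaling and without any 1 of the day 0 libraries or culture 9/10 A or B (adjusted p from 0.0579 to 0.0878). TRCN0000121430 against Tns4 rose by 0.59 and 0.77 in the cultures, calls lost without any 1 of the day 0 libraries or culture 9/10 A or B in culture 9/10 (adjusted p from 0.0702 to 0.128) and without day 0 B or culture 8/9 B in culture 8/9 (adjusted p = 0.0677 and 0.0900). TRCN0000087792 against Sesn2 rose by 0.60 in culture 9/10, lost without day 0 A or C (adjusted p = 0.0609 and 0.0685), and TRCN0000124224 against Tmem45b changed by -1.77 and -1.89. Of the single hairpins of Cdh23, a cadherin of hair cells, and Phlda1, the rarest at 0.00840% to 0.0145% at day 0, neither was called in any comparison.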

How the data were processed

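Genomic DNA of cells and tumours was amplified by a two-step PCR across the hairpins and sequenced, per the labels' protocols, with no molecular identifiers named, so counting error understates a value's error. Reads were aligned with BWA 0.5.9, per the submitters' processing notes; how reads were counted and scaled is not given in the sources used here. The deposited values are a signal: within each library, dividing by the smallest value gave whole reads for 27241 of 27241 values in the series (tolerance 0.01 reads). Hairpins not listed were taken as 0.

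Technical repeats were summed and reads expressed as CPM of the library's pool 9 reads. limma 3.58.1 (R 4.3.3; trend, robust) was fitted on log2(CPM + 1), per pool, with only the 2 groups compared. This scale understates changes of rare hairpins. A minimum mean of 10 reads removed no pool 9 hairpin. The Benjamini-Hochberg adjustment ran over the hairpins of all pools (pools 9 and 10 for the mixtures). Effective numbers of hairpins were compared by exact permutation (scipy 1.17.1). The steps were also run on simulated reads with the same spread in every comparison. The real lungs spread more widely than the other groups, so that run does not speak for the lung calls. Alternatives were TMM, edgeR 4.0.16 and DESeq2 1.42.0 on recovered reads, other filters, pseudocounts and groupings. The lungs against day 0 were also scaled by the total of the control hairpins.

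Replicate letters were checked as pairs. For culture 8/9 and 9/10 the deviations of same-letter libraries correlated at 0.215, 0.438 and 0.267 over 52 hairpins, so a block was also fitted; for day 0 and culture they did not all exceed 0.1 (from -0.102 to 0.251).

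Named hairpins were, per comparison with day 0 and direction, the 6 called hairpins with the largest change among those whose groups do not overlap; the 4 largest per direction for the lungs against culture 9/10; all hairpins of genes called wholly in 1 direction or in opposite directions; the most abundant of each group; any other called hairpin may be named. Other members are named with their values to account for all 52, and hairpins of other pools were picked after their values were seen. Members and gene lists were chosen with earlier results of these data known. Of 7 gene lists, 2 had no gene in pool 9 and 4 had 1. The lists were not complete, since Snrpd1 and Rif1 were on none, so they do not describe all that the pool holds. Symbols were taken from the tables; 22 of 24 matched RefSeq symbols and 1 a synonym.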

Additional observations from a re-analysis of the deposited data

Results flagged for a closer look

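Under every scaling 6 hairpins were called between the 2 culture mixtures, a shared limma fit called 0, and mixture and lane cannot be told apart. In the main fit, 13 hairpins differed between the mixtures in a direct test of the difference. On the log2(CPM + 1) scale, as culture 8/9 minus culture 9/10, these were Eif5b TRCN0000179179 (5.55) and TRCN0000183617 (1.90, with overlapping replicates), Eftud2 TRCN0000123640 (1.21), Ptges3 TRCN0000071288 (1.14), Dusp4 TRCN0000054351 (1.01), Cxcl3 TRCN0000067116 (0.81), Rif1 TRCN0000071339 (0.81), Slco1c1 TRCN0000079909 (0.75), Mast4 TRCN0000022932 (0.73), BC003331 TRCN0000216875 (0.72), Yme1l1 TRCN0000031200 (0.72), Ptges3 TRCN0000071291 (-0.34) and Alms1 TRCN0000183730 (-0.97).

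Lungs and culture 8/9 differed in 15 hairpins. Lungs and culture 9/10 differed in 8, again by a direct test, and 5 of these 8 calls held under every other scaling. As lungs minus culture 9/10, the values were 3.07 for Rif1 TRCN0000071339, 2.76 for Upp1 TRCN0000190209, 2.41 for Rif1 TRCN0000071341, 1.37 for Slc37a2 TRCN0000070098, 1.17 for Sesn2 TRCN0000087792, -1.83 for Vgll4 TRCN0000175905, -2.26 for Dusp4 TRCN0000054351 and -3.81 for Alms1 TRCN0000183730.

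Reads of hairpins from other pools made up 0.971% of lungs A, above the highest day 0 library of pool 9 (0.385%) though below the highest day 0 library of the series (3.03%).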

How the results depend on the processing

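The counts called in the cultures stayed within 1.5 times of 40 and 41 in all alternatives but 1: with all groups of the pool in a shared fit, 26 were called in culture 8/9. Leaving out 1 library gave 37 to 44 in culture 8/9 and 36 to 42 in culture 9/10. For the lungs against day 0 (18), the shared fit gave 33 and leaving out 1 library 9 to 46. Against culture 9/10 (8), DESeq2 gave 13, the shared fit 20, the replicate block 5 and leaving out 1 library 4 to 31. Against culture 8/9 (15), the fit without trend and robust estimation gave 9, the replicate block 7 and leaving out 1 library 12 to 33. Between the mixtures (13), the shared limma fit gave 0 (14 at an unadjusted p under 0.05; edgeR called 12 and DESeq2 19) and leaving out 1 library 7 to 14; the block gave 14, and apart from the 3 hairpins given with the mixtures it changed no call there. The fall in effective number from day 0 kept its direction in all alternatives, and ranged without 1 library from -9.77 to -9.28, -16.2 to -15.3 and -19.0 to -8.34.

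Over the 135 calls of the 6 comparisons, 1378 values with other settings kept direction and call, 181 kept direction only and 12 turned, the 12 all with other scalings; without 1 library 678 kept both and 91 direction only. In culture 9/10, Mast4 TRCN0000022932 became 0.21, 0.40 and 0.32 with TMM, DESeq2 size factors and deposited values, Alms1 TRCN0000183842 0.081, 0.27 and 0.19, Ptges3 TRCN0000071288 0.13 and 0.050 with the last 2, and Rsad2 TRCN0000077451 0.0052 with DESeq2 size factors. In culture 8/9, Slc37a2 TRCN0000070098 became 0.093, 0.33 and 0.22. The cause was not tested. Lung values rest on 2 mice.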
